A study of Mus musculus with 16 samples.

Results

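The circadian clock genes examined in these mice were Arntl, Clock, Npas2, Per1, Per2, Per3, Cry1, Nr1d1, Nr1d2 and Dbp. They were taken by gene symbol from the deposited table of reads counted per gene, and all 10 were found among its 46078 genes. Their expression is given library by library because the time of day at which each mouse was killed is not given in the sources used here.

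The circadian clock is a transcriptional feedback loop that runs with a period of about a day in nearly every cell of the body. The proteins of Arntl (BMAL1) and of Clock or its relative Npas2 bind as partners to E-box sequences and switch on the Per and Cry genes, whose products then shut the activators down, and also the nuclear receptors Nr1d1 and Nr1d2 (REV-ERB alpha and beta), which repress Arntl, and the transcription factor Dbp. In most peripheral tissues Arntl and the E-box driven genes therefore peak at opposite times of day, and in the intestine the time of feeding sets the phase and many transporters follow it.

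Ileum mucosa of 16 C57Bl/6 mice was profiled by RNA sequencing in 4 groups of 4, namely WT and Slfn3KO mice labelled male, and WT and Slfn3KO mice labelled female. Slfn3KO mice lack Slfn3, a Schlafen family gene linked to the differentiation of enterocytes, and the WT mice were their littermates. The labels give an age of 8 weeks for each mouse, whereas the methods of the study give an older age. The study asked how the loss of Slfn3 changes the intestine of each sex. The counts summed to between 20823279 and 30813117 per library. Values are given as CPM, the count of a gene scaled to the depth of its library with TMM factors. In CPM, 3 counts, the limit that a count of 0 allows, came to between 0.0974 and 0.144 before TMM scaling, a limit that takes in counting error alone.

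Slfn3, the targeted gene, was counted little in any library. In mice labelled female it had 1, 4, 7 and 13 counts in WT 1 to 4 and 0, 0, 0 and 2 counts in Slfn3KO 1 to 4. In mice labelled male it had 1, 2, 19 and 0 counts in WT 1 to 4 and 1, 0, 0 and 0 counts in Slfn3KO 1 to 4. The genotypes overlapped, since 1 WT library had no count and 2 others had 1 count, and at this depth Slfn3 does not check the genotype label of each library.

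Xist, the RNA that coats the inactive X, and Ddx3y, Uty, Kdm5d and Eif2s3y, which lie on the Y chromosome, served to check the labelled sex. In the libraries labelled WT 3 and 4 of both sexes these 5 genes went against the label. Xist was 0.121 and 0 CPM in female WT 3 and 4 and 442 and 394 CPM in male WT 3 and 4. Ddx3y was 41 and 49.4 CPM in female WT 3 and 4, and 0 and 0.0408 CPM in male WT 3 and 4. Kdm5d, Uty and Eif2s3y were at 24.5 CPM or more in the same libraries labelled female, and at 0.0816 CPM or less in the same libraries labelled male. The labels were kept, male and female here mean the label, and each genotype difference of a named gene is also given without these 4 libraries. Within a sex this leaves only WT 1 and 2 against Slfn3KO 1 to 4.

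The tissue was checked with marker genes. The 3 ileum markers Fabp6, Slc10a2 and Fgf15 together ranged from 1983 CPM in male WT 2 to 15958 CPM in female WT 2, with Fabp6 the most abundant. The 6 markers of the proximal small intestine, led by Fabp2, summed to 23637, 15929.7, 2091 and 6471 CPM in female WT 1 to 4 and 1876, 1589.8, 8655 and 4803 CPM in female Slfn3KO 1 to 4. They summed to 12390.5, 14914, 3977 and 14502 CPM in male WT 1 to 4 and 10917, 15314, 8605 and 18838 CPM in male Slfn3KO 1 to 4, and of the 6, Cyp8b1 had at most 3 counts in each library. The proximal sum was thus lowest in female Slfn3KO 2 and 1 and highest in female WT 1, with the genotypes overlapping. The 6 B cell follicle markers summed to 13.5, 98.3, 318 and 413 CPM in female WT 1 to 4 and 22.3, 6.81, 39.6 and 9.17 CPM in female Slfn3KO 1 to 4. In males they summed to 4.95, 3.78, 661 and 136 CPM in WT and 1.72, 5.27, 64.9 and 97.8 CPM in Slfn3KO. The 4 highest sums were those of the 4 libraries whose sex transcripts went against their label.

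The other markers spread as follows. The 5 enterocyte markers, led by Apoa1, summed from 5311 CPM in female Slfn3KO 2 to 25992 CPM in female WT 1, and the 4 epithelial markers, led by Krt20, from 7105 CPM in female Slfn3KO 2 to 15684 CPM in female WT 1. The 4 T cell markers, led by Cd8a, summed from 29.7 CPM in female WT 2 to 164 CPM in female WT 1. The 5 smooth muscle markers, led by Acta2, ran from 2.40 CPM in female WT 1 to 94.6 CPM in male WT 4, and the 3 adipocyte markers, led by Cidec, from 6.81 CPM in female Slfn3KO 2 to 108 CPM in female WT 1. Cidec made up nearly all of the adipocyte sum. Adipoq and Plin1 were at 0 in female WT 1, and highest in male Slfn3KO 4 at 2.65 and 0.568 CPM. The 4 pancreas markers, led by Cela1, stayed between 4.88 and 8.98 CPM, with no count of Amy2a5 in any library and at most 3 counts of Cpa1 and Prss2 in each. The 3 enteric neuron markers, led by Uchl1, summed to at most 1.07 CPM. Since the samples are pieces of tissue, fewer cells of a type and less RNA per cell cannot be told apart.

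Promoters are shown because the loop acts through short sequence elements and because several of the 10 genes moved together across the libraries. RefSeq promoter windows of GRCm38.p6, each from 250 bases before to 50 bases after a transcription start, were found for 9 of the 10 genes, in 13 windows. They were searched on both strands for the E-box CACGTG, the related E'-box CACGTT, the D-box TTATGTAA or TTACGTAA, and the RORE core TAGGTCA or TGGGTCA. An E-box was present in 7.15% of all 32851 windows of the mouse, an E'-box in 4.68%, a D-box in 1.06% and a RORE core in 6.45%. Per2 was without a window here and was not searched. Among the other 9 genes, 5 windows of 5 genes held at least 1 of these, and no match overlapped another. The share of all windows of the mouse holding at least 1 was not computed, so this count has no background. The windows are given 5′ to 3′ on the strand of the gene, with matches in capitals.
Arntl, chr7:113207261-113207560, plus strand: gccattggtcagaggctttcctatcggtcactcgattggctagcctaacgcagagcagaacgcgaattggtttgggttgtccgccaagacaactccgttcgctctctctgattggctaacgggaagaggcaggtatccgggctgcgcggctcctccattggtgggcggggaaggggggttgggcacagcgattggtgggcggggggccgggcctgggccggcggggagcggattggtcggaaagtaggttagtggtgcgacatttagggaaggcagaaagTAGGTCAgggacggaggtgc
Per1, chr11:69098699-69098998, plus strand: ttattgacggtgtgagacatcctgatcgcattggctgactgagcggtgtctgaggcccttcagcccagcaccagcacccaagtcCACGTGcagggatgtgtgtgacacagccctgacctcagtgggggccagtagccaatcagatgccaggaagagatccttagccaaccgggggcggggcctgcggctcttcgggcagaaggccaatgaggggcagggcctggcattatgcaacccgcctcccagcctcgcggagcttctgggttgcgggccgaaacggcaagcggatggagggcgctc
Per3, chr4:151044616-151044915, minus strand: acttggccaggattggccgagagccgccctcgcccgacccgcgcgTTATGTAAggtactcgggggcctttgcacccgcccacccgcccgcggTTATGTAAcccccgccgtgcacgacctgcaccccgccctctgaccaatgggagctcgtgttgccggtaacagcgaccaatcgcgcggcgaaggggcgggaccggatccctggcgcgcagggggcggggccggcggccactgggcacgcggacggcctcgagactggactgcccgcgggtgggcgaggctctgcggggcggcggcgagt
Cry1, chr10:85185005-85185304, minus strand: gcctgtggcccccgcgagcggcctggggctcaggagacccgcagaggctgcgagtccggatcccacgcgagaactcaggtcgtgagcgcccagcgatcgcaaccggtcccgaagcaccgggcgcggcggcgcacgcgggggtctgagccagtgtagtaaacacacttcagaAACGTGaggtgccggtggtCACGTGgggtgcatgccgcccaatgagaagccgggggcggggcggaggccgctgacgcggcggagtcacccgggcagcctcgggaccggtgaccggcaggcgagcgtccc
Nr1d1, chr11:98775328-98775627, minus strand: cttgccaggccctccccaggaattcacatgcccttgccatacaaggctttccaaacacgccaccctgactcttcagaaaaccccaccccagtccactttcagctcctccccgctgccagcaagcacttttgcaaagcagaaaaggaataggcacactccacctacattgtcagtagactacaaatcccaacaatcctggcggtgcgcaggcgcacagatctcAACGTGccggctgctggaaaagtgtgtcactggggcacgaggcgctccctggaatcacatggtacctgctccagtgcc
With positions counted from the transcription start and negative before it, Per3 held 2 D-boxes, at -205 and -158. Cry1 held an E'-box at -79 and an E-box at -60, Per1 an E-box at -166, and Nr1d1 an E'-box at -28, both E'-boxes reading AACGTG on the strand of the gene. A RORE core of Arntl lay at 31. No match was found in the windows used here for Dbp, Nr1d2, Clock or Npas2. A match describes the letters of the window and was not tested as a binding site.

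Of the activating arm, Arntl (ENSMUSG00000055116, chromosome 7, 113207465 to 113314122 of mm10) varied 4.30-fold from its lowest to its highest library. Arntl was 59.7, 32.9, 52.7 and 40.8 CPM in female WT 1 to 4 and 31.6, 38.2, 38.8 and 33.1 CPM in female Slfn3KO 1 to 4. Among males Arntl was 30.2, 29.5, 25.6 and 29.3 CPM in WT 1 to 4 and 13.9, 31.2, 47.2 and 21.8 CPM in Slfn3KO 1 to 4. Arntl was lowest in male Slfn3KO 1 and highest in female WT 1, followed by female WT 3 and male Slfn3KO 3. The male WT libraries lay close together, whereas the male Slfn3KO libraries lay on both sides of them. For female WT the group mean was 46.5 ± 12 CPM (n = 4, SD), compared with 35.4 ± 3.62 CPM (n = 4, SD) for female Slfn3KO. For male WT it was 28.7 ± 2.07 CPM (n = 4, SD), compared with 28.5 ± 14.3 CPM (n = 4, SD) for male Slfn3KO, so that the means of males were alike while the SD was larger in Slfn3KO. The log2 fold change of Slfn3KO against WT, with labelled sex as a covariate in edgeR's quasi-likelihood test, was -0.20 (standard error 0.198, Benjamini-Hochberg adjusted p = 0.694), and -0.22 without the WT libraries 3 and 4. Within sexes it was -0.0031 in males (edgeR adjusted p = 0.999) and -0.40 in females (edgeR adjusted p = 0.297), or -0.043 and -0.39 without those libraries. Female and male differences differed by -0.39 (edgeR interaction, adjusted p = 0.685), or -0.33 without them and -0.045 without male Slfn3KO 3. Leaving out 1 library moved the pooled value of Arntl from -0.39 (without male Slfn3KO 3) to -0.12 (without male Slfn3KO 1). The female value of Arntl ran from -0.54 (without female WT 2) to -0.26 (without female WT 1).

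Clock (ENSMUSG00000029238, chromosome 5, 76209868 to 76304792), the partner of Arntl, was the steadiest of the 10 genes. It ranged from 69.7 CPM in female Slfn3KO 2 to 101 CPM in male Slfn3KO 2, a 1.45-fold range, and the genotypes overlapped in both sexes. The pooled log2 fold change was 0.024 (standard error 0.0774) and -0.047 without the WT libraries 3 and 4, so its sign turned with them.

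Npas2 (ENSMUSG00000026077, chromosome 1, 39193731 to 39363236) can take the place of Clock beside Arntl. Npas2 was 106, 66.6, 49.8 and 53.2 CPM in female WT 1 to 4 and 26.2, 28.1, 47.8 and 42.2 CPM in female Slfn3KO 1 to 4. Among males Npas2 was 48.6, 45.6, 30.2 and 67.9 CPM in WT 1 to 4 and 35, 60.8, 64.2 and 56.1 CPM in Slfn3KO 1 to 4. In females all 4 Slfn3KO libraries were below all 4 WT libraries, and in males the genotypes overlapped. Female WT 1, which had the highest Arntl, also had the highest Npas2. Summed enterocyte markers were highest in the same library, at 25992 CPM, and lowest in female Slfn3KO 1 and 2, where Npas2 was lowest, at 6729 and 5311 CPM, and their part in the difference was not tested. In the female comparison the log2 fold change was -0.93 (standard error 0.282, unadjusted p = 0.00945, adjusted p = 0.237 by edgeR). DESeq2's Wald test put it past the threshold with an adjusted p of 0.0449, and over all alternatives of that comparison the adjusted p ran from 0.0449 to 0.554. Without the WT libraries 3 and 4 it was -1.26 (edgeR adjusted p = 0.121). Npas2 was singled out within a sex after its values were seen. The pooled log2 fold change was -0.38 (standard error 0.247), or -0.58 without those libraries and -0.21 without female WT 1. The female difference minus the male difference was -1.10 on the log2 scale (edgeR interaction, unadjusted p = 0.0183, adjusted p = 0.441), and -1.46 without the WT libraries 3 and 4 (edgeR adjusted p = 0.0687), where the adjusted p was the lowest of a range up to 0.705. In the replicate block its unadjusted p by edgeR was 0.0512.

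Among the repressors of the Per family, Per1 (ENSMUSG00000020893, chromosome 11, 69095217 to 69109960) ranged from 5.90 CPM in male WT 1 to 22.5 CPM in female WT 2. Its group means were close, between 12.7 and 15 CPM, and the pooled log2 fold change was -0.068 (standard error 0.244), or -0.032 without the WT libraries 3 and 4. Its sign turned without female WT 2, at 0.043, and without male WT 3, at 0.035. Per2 (ENSMUSG00000055866, chromosome 1, 91415982 to 91459324) was 13, 28.9, 53.1 and 72.3 CPM in male WT 1 to 4 and 36.3, 22.5, 16 and 44.3 CPM in male Slfn3KO 1 to 4. In females it was 23, 28.3, 15 and 24.7 CPM in WT and 26.8, 20.2, 18.9 and 28 CPM in Slfn3KO. The highest values of Per2 were those of male WT 4 and 3, libraries whose sex transcripts went against the label. The pooled log2 fold change of Per2 was -0.23 (standard error 0.301) with them and 0.19 without the 4 doubtful libraries, so that its direction rested on them. Without male WT 4 alone it was -0.030.

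Per3 (ENSMUSG00000028957, chromosome 4, 151003652 to 151044665), the member with 2 D-boxes in its promoter window, varied 11.2-fold. Per3 was 3.89, 13.1, 4.53 and 10.8 CPM in female WT 1 to 4 and 8.72, 7.52, 8.22 and 11.3 CPM in female Slfn3KO 1 to 4. Among males Per3 was 7.81, 12.8, 23 and 32.6 CPM in WT 1 to 4 and 43.6, 14.8, 7.63 and 18.5 CPM in Slfn3KO 1 to 4. It was highest in male Slfn3KO 1 and lowest in female WT 1 and 3, the reverse of Arntl at both ends. The pooled log2 fold change was 0.14 (standard error 0.362), 0.54 without the WT libraries 3 and 4, and -0.15 without male Slfn3KO 1, so that its direction rested on that mouse.

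Cry1 (ENSMUSG00000020038, chromosome 10, 85131702 to 85185054) encodes the partner of the Per proteins and is also repressed by Nr1d1, so that it peaks later than the other E-box driven genes. Cry1 was 38.3, 14.3, 28.8 and 30.5 CPM in female WT 1 to 4 and 12.5, 10.5, 19.8 and 23.1 CPM in female Slfn3KO 1 to 4. Among males Cry1 was 16.3, 18.1, 32.7 and 22.6 CPM in WT 1 to 4 and 11.2, 25.4, 21.9 and 18.2 CPM in Slfn3KO 1 to 4. It was highest in female WT 1 and male WT 3, and lowest in female Slfn3KO 2, male Slfn3KO 1 and female Slfn3KO 1. In both sexes the genotypes overlapped. The pooled log2 fold change was -0.50 (standard error 0.239, unadjusted p = 0.0539, adjusted p = 0.423 by edgeR) and -0.27 without the WT libraries 3 and 4 (unadjusted p = 0.406 by edgeR). The side of 0.05 on which this unadjusted p fell depended on several choices. By DESeq2 it was 0.0449, and by edgeR 0.0440 without labelled sex as a covariate and 0.0207 when the replicate number was a block, while leaving out 1 library moved it from 0.0233 to 0.120. With the filter set by the sex and genotype design, which was run before the filter by 4 groups, 14377 genes were tested and it was 0.0498, and the choice between these filters was made after both values were seen. In females alone it was -0.77 (unadjusted p = 0.0488, adjusted p = 0.290 by edgeR) and -0.67 without the WT libraries 3 and 4. This p rose above 0.05 without those libraries (0.176 by edgeR) and with no filter (0.0506). With 1 library left out, it was also above 0.05 without female WT 1 (at -0.58), 3 or 4. The same held without female Slfn3KO 1, 2 or 3, whereas without female WT 2 or female Slfn3KO 4 it stayed under 0.05.

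Nr1d1 (ENSMUSG00000020889, chromosome 11, 98767932 to 98775333) and Nr1d2 (ENSMUSG00000021775, chromosome 14, 18204054 to 18239127) encode the nuclear receptors that repress Arntl. An exon of Nr1d1 overlaps an exon of Thra on the opposite strand, and the reads were counted by strand. Nr1d1 was 171, 162, 85.7 and 214 CPM in female WT 1 to 4 and 90.1, 95.1, 182 and 135 CPM in female Slfn3KO 1 to 4. Among males Nr1d1 was 137, 160.4, 96.7 and 141 CPM in WT 1 to 4 and 310.0, 255, 137 and 206 CPM in Slfn3KO 1 to 4. The highest values of Nr1d1 were those of male Slfn3KO 1 and 2, and male Slfn3KO 1, 2 and 4 were above all 4 libraries of male WT, while male Slfn3KO 3 lay among them. Male WT averaged 134 ± 26.7 CPM (n = 4, SD), and male Slfn3KO averaged 227 ± 73.6 CPM (n = 4, SD). Each library labelled male Slfn3KO was above the one labelled male WT of the same number. No label pairs the mice by number, and the sex transcripts of male WT 3 and 4 went against their label. In males the log2 fold change was 0.77 (standard error 0.248, unadjusted p = 0.0134, adjusted p = 0.925 by edgeR), and 0.63 without the WT libraries 3 and 4. There its unadjusted p by edgeR was 0.0828, no longer under 0.05. Nr1d1 was chosen within a sex because the study, which used these same libraries, lists it. Blocking on replicate number gave 0.73 (edgeR unadjusted p = 0.00236, adjusted p = 0.743, in a range over all alternatives of 0.476 to 1). In females it was -0.34 (edgeR adjusted p = 0.529), or -0.41 without them, -0.16 without female WT 4 and -0.57 without female Slfn3KO 3. The female difference minus the male difference was -1.10 (edgeR interaction, unadjusted p = 0.0191, adjusted p = 0.441), and -1.03 without these libraries. Over both sexes the log2 fold change was 0.21 (standard error 0.249), or 0.078 without them. Leaving out 1 library moved this from 0.085 (without male Slfn3KO 1) to 0.33 (without female WT 4).

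Nr1d2 ran from 29.6 CPM in female WT 3 to 114 CPM in male Slfn3KO 1. In males it was 58, 71.7, 61.1 and 79.2 CPM in WT 1 to 4 and 114, 90.0, 48.7 and 70.6 CPM in Slfn3KO 1 to 4. The Slfn3KO males again lay on both sides of the WT males. The pooled log2 fold change was 0.21 (standard error 0.176), or 0.20 without the WT libraries 3 and 4 and 0.10 without male Slfn3KO 1.

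Dbp (ENSMUSG00000059824, chromosome 7, 45705088 to 45710155), an output gene whose product binds D-boxes, varied most, 32.2-fold between libraries. An exon of Dbp overlaps an exon of Sphk2 on the opposite strand. Dbp was 3.39, 31.4, 4.65 and 16.1 CPM in female WT 1 to 4 and 13.4, 7.13, 9.47 and 15.4 CPM in female Slfn3KO 1 to 4. Among males Dbp was 11.3, 14.3, 22.3 and 28.3 CPM in WT 1 to 4 and 109, 28.3, 5.72 and 39.7 CPM in Slfn3KO 1 to 4. Male Slfn3KO 1 stood far above every other library, with 2977 counts against 840 in the next, male Slfn3KO 4. The lowest were female WT 1, female WT 3 and male Slfn3KO 3, the same 3 libraries that had the most Arntl. The male Slfn3KO group thus held both the highest value of Dbp and one of its lowest, with a mean of 45.7 ± 44.6 CPM (n = 4, SD) against 19 ± 7.73 CPM (n = 4, SD) for male WT. Female Slfn3KO averaged 11.3 ± 3.74 CPM (n = 4, SD), and female WT averaged 13.9 ± 13 CPM (n = 4, SD). The log2 fold change was 0.49 over both sexes (standard error 0.556, edgeR adjusted p = 0.729), 1.26 in males (edgeR adjusted p = 0.925) and -0.30 in females (edgeR adjusted p = 0.803). With the WT libraries 3 and 4 left out these were 0.46, 1.86 and -0.62. Without male Slfn3KO 1 the value was 0.012 over both sexes and 0.36 in males, where the fit that blocks on replicate number gave 0.73. Without female WT 2 it was 0.90 over both sexes and 0.48 in females. With all 16 libraries and no covariate for labelled sex the pooled value was 0.78. The female difference minus the male difference was -1.54 (edgeR interaction, adjusted p = 0.535), or -2.48 without the WT libraries 3 and 4, -0.66 without male Slfn3KO 1 and -0.51 with the block.

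**Figure D1:**
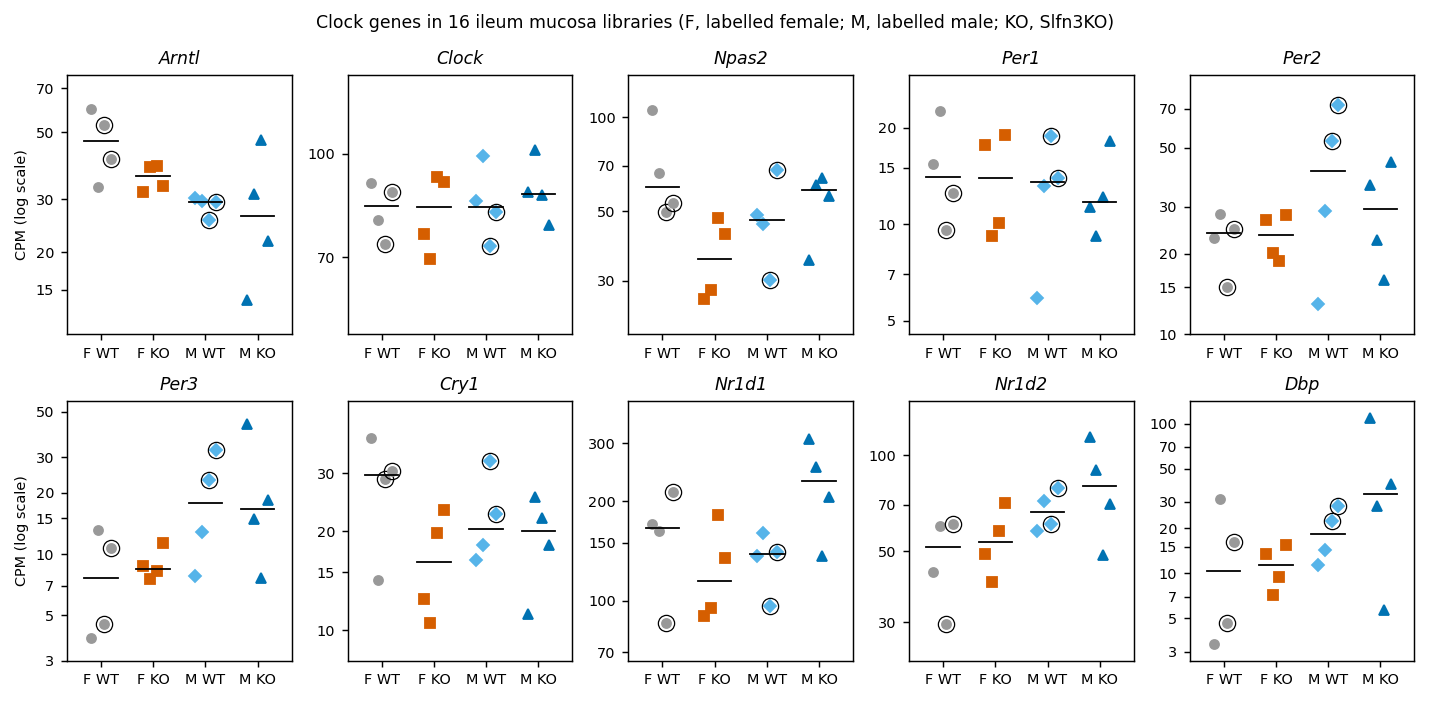
CPM on a log axis of each of the 10 clock genes in the 16 libraries, with 1 symbol per library in order of its number, a line at the median of each labelled group and a ring around the WT libraries 3 and 4. Dbp spans 3.39 to 109 CPM and Clock 69.7 to 101 CPM.

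Over all genes, the genotype comparisons called none of the clock genes by edgeR. At a Benjamini-Hochberg adjusted p under 0.05 with a change of at least 1.5-fold, 0 of the 10 genes passed in the pooled comparison, where 0.00% of all 14822 genes tested passed, and 0 at an unadjusted p under 0.05, where 11.9% of all genes did. DESeq2 called 0 of the 10 in the pooled comparison and 0.364% of all genes. In males edgeR called 0 of the 10 genes and 0.00% of 14124 genes, and DESeq2 0 of the 10 and 0.0991% of all genes. Nr1d1, higher in Slfn3KO, was the 1 member at an unadjusted p under 0.05 by edgeR in males, against 3.84% of all genes. In females edgeR called 0 of the 10 and 0.00% of 14064 genes, and 2 members, Npas2 and Cry1, were lower at an unadjusted p under 0.05, against 17.1% of all genes. DESeq2 called 1 of the 10 in females, Npas2, and 3.60% of all genes. For the difference between the sexes edgeR called 0 of the 10 and 0.00% of 14822 genes, with 2 members, Npas2 and Nr1d1, at an unadjusted p under 0.05, against 11.1% of all genes, and DESeq2 called 0 of the 10 and 0.128%. Leaving out the WT libraries 3 and 4, edgeR called 359 genes for this difference, still 0 of the 10. Counts of 2 or fewer of 10 genes are no result about the clock genes as a list. The median log2 fold change of the 10 genes was -0.022 over both sexes, 0.11 for males and -0.20 for females, beside -0.0037, -0.0016 and -0.0098 over all genes.

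**Figure D2:**
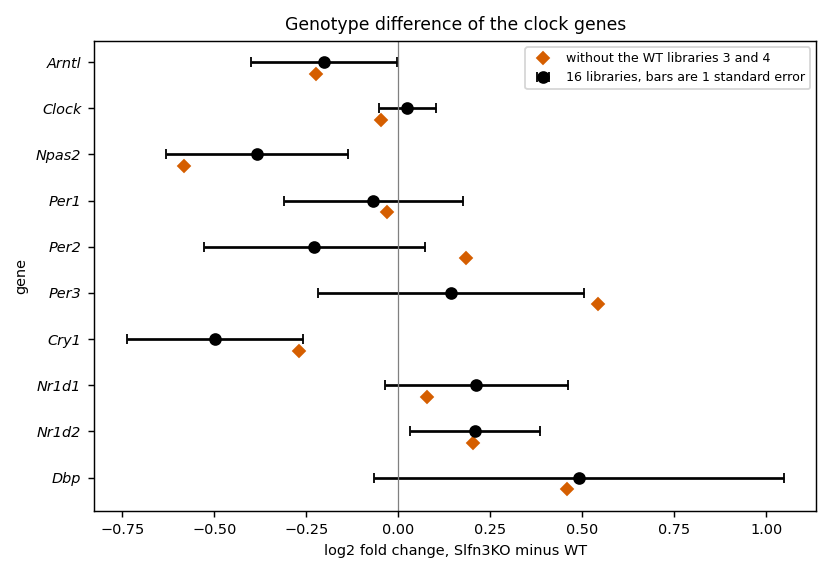
Pooled log2 fold change of Slfn3KO against WT for the 10 clock genes, from edgeR with labelled sex as a covariate. Points are 16 libraries with bars of 1 standard error, and diamonds leave out the WT libraries 3 and 4, where 2 genes, Clock and Per2, change sign. Dbp lies at 0.49 and Cry1 at -0.50.

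Arntl and Dbp, which peak at different times of day, were inversely related over the 16 libraries. Pearson's r of log2 CPM was -0.92 (two-sided permutation p = 1e-05, the smallest that 100000 pairings can give) and Spearman's rho was -0.79 (permutation p = 0.0004). This was the only relation tested, so that the adjusted p equals the raw p. Male Slfn3KO 1 and female WT 1 were farthest from the median of Arntl, and r was -0.82 without them (permutation p = 0.00021, n = 14). Without the WT libraries 3 and 4 it was -0.93 (permutation p = 4e-05, n = 12). Within the 8 Slfn3KO libraries r was -0.97 (exact permutation p = 0.000124) and rho -0.95 (exact permutation p = 0.00114). Within the 8 WT libraries r was -0.84 (exact permutation p = 0.0137), whereas rho was -0.62 (exact permutation p = 0.115). After centring each gene on the 4 group means, r was -0.93 (permutation p = 0.00019 within groups), so the relation was present among mice of the same labelled group. No sequencing batch was named in the sources used here, so no within-batch value was computed.

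**Figure D3:**
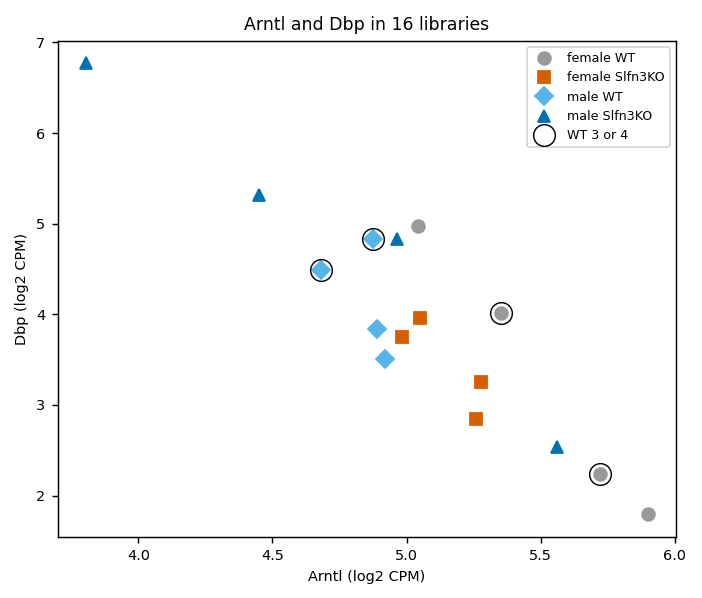
Log2 CPM of Arntl on the horizontal axis and of Dbp on the vertical axis, with 1 symbol per library, shaped and coloured by labelled group, and rings around the WT libraries 3 and 4. The point at the upper left is male Slfn3KO 1 and that at the lower right female WT 1, and r is -0.92 over the 16 libraries.

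The remaining clock genes were set beside this axis as a description, over the same 16 libraries, which share the mouse and the depth of each library. With Dbp, Pearson's r of log2 CPM was 0.92 for Per3, 0.86 for Nr1d2, 0.64 for Per2, 0.57 for Nr1d1 and 0.25 for Per1. With Arntl it was 0.51 for Cry1 and 0.44 for Npas2. Clock had r of -0.0080 with Arntl and 0.10 with Dbp. Per3 and Nr1d2 thus followed Dbp most closely and Clock followed neither. Leaving out the WT libraries 3 and 4, the values with Dbp were 0.96 for Per3, 0.86 for Nr1d2, 0.66 for Per2, 0.63 for Nr1d1 and 0.16 for Per1.

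The spread of the clock genes was set beside that of all 14822 genes tested. The SD of log2 CPM over the 16 libraries was 1.27 for Dbp, 0.935 for Per3, 0.665 for Per2 and 0.158 for Clock, and between 0.469 and 0.552 for the other 6 genes. Its median was 0.534 over the 10 genes and 0.323 over all genes. Most of the spread of Dbp lay inside the labelled groups, where its residual SD was 1.22 against a median of 0.304 over all genes. A larger SD than that of Dbp was found for 3.66% of the genes tested, and a larger SD than that of Clock for 84.2%.

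Levels were compared between genes only per length, as TPM, the share of a gene among all counts after division by the exon length in the table. The median over 16 libraries was 116 TPM for Nr1d1, 30.1 TPM for Nr1d2, 27.4 TPM for Arntl and 26.3 TPM for Npas2. It was 17.3 TPM for Cry1, 14.5 TPM for Clock, 12 TPM for Dbp and 10.7 TPM for Per2. Per1 and Per3 were lowest, at 5.54 and 2.73 TPM. Nr1d1 was above Nr1d2 in 16 of 16 libraries, Npas2 above Cry1 in 15, Per2 above Per1 in 16 and Per1 above Per3 in 14. The other neighbours in this order did not separate, since Nr1d2 was above Arntl in 9 of 16 libraries, Arntl above Npas2 in 10, Cry1 above Clock in 9, Clock above Dbp in 10 and Dbp above Per2 in 7.

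As a single description of each library, the mean log2 CPM of Arntl, Clock and Npas2 minus that of Per1, Per2, Per3, Nr1d1, Nr1d2 and Dbp was computed and is called the phase contrast. Cry1 was left out of it. In females it was 2.19, 0.60, 2.03 and 0.94 in WT 1 to 4 and 0.67, 1.19, 1.25 and 0.69 in Slfn3KO 1 to 4. In males it was 1.36, 0.74, 0.0088 and 0.23 in WT 1 to 4 and -0.87, 0.70, 1.70 and 0.013 in Slfn3KO 1 to 4. Male Slfn3KO 1 was the 1 library below 0, and female WT 1 and 3 were the 2 libraries above 2 on the log2 scale. The range over all libraries was 3.06, and that within the male Slfn3KO group alone was 2.58. Genotypes overlapped in both sexes, with means of 1.01 ± 0.793 (n = 8, SD) in WT and 0.668 ± 0.801 (n = 8, SD) in Slfn3KO, and 1.22 ± 0.723 (n = 4, SD) in WT without the libraries 3 and 4. Female WT 1 and female WT 3 lay together at the high end with proximal marker sums of 23637 and 2091 CPM and B cell follicle sums of 13.5 and 318 CPM. Male Slfn3KO 1, at the low end, had 10917 and 1.72 CPM. The T cell sums were 164 and 83.6 CPM in female WT 1 and 3 and 36.7 CPM in male Slfn3KO 1. Over all libraries, r of the log2 marker sum with the phase contrast was 0.43 for pancreas, 0.42 for T cell and -0.35 for ileum markers. For the other lists, the proximal and B cell follicle markers among them, it lay between -0.14 and 0.16. The part of the cell mixture in the clock values was not tested. With no time of killing in the sources used here, a shift of the clock and a difference in sampling time cannot be told apart. The study also pair-fed Slfn3KO mice to WT mice, without saying whether the sequenced mice were among them. The part of feeding was not tested.

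**Figure D4:**
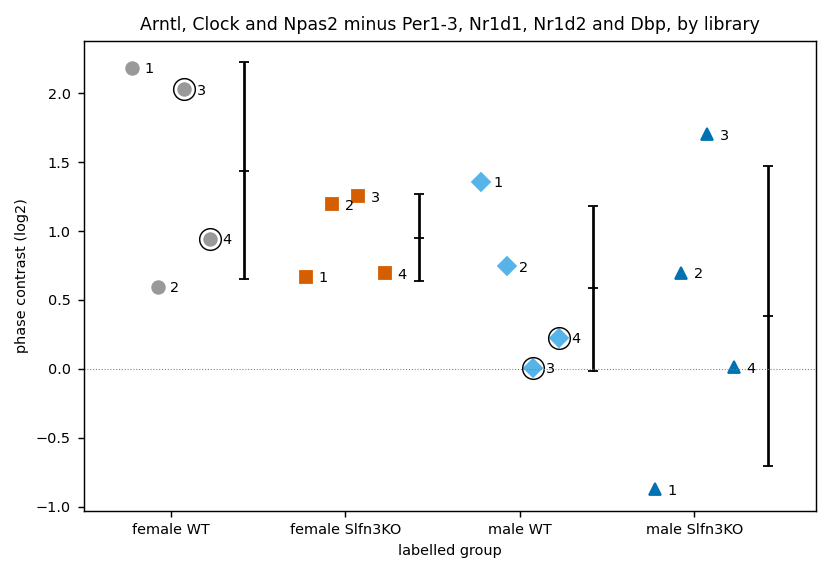
Phase contrast on the log2 scale of each library by labelled group, with the library number beside each symbol, the mean and SD of the 4 libraries as black bars, and rings around the WT libraries 3 and 4. Male Slfn3KO spans -0.87 to 1.70.

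**Figure D5:**
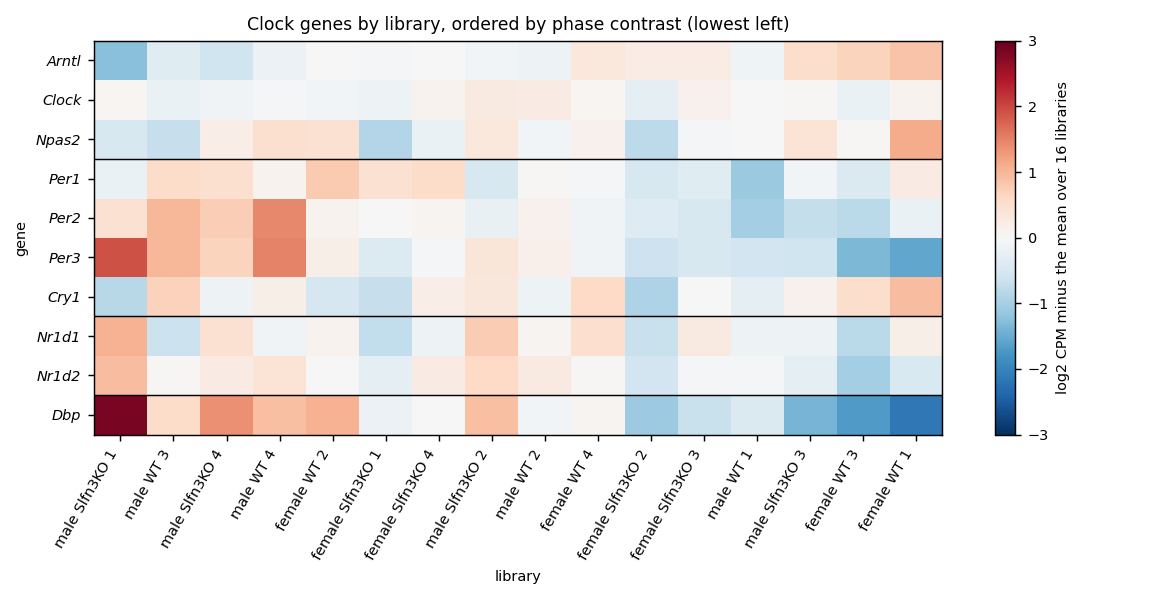
Log2 CPM of each clock gene (rows, grouped by role) minus its mean over the 16 libraries (columns, ordered by the phase contrast from the lowest at the left). Red is above and blue below the mean of the gene, and Dbp and Per3 run opposite to Arntl from left to right. The phase contrast adds Arntl and subtracts Dbp and Per3, so this order in part produces the opposite run.

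The genes most like Dbp over the 16 libraries, by Pearson's r of log2 CPM among the genes tested, were Tns4 (0.93), Per3 (0.92), Tef (0.91), Rundc3b (0.87), Nr1d2 (0.86), Anxa7 (0.85), Abcb1a (0.83), Lsm14b (0.81), Ank3 (0.81) and Nrg4 (0.80). The 5 with the lowest r were Arntl (-0.92), Nfil3 (-0.89), Arap3 (-0.81), Plagl2 (-0.79) and Ighv1-39 (-0.77). Per3 and Nr1d2 were thus among the 10 nearest to Dbp of 14821 genes, and Arntl was the farthest. Tef and Dbp belong to the same family of transcription factors, and Tef was 152 CPM in male Slfn3KO 1 and 22.7 CPM in female WT 3, its highest and lowest values. For Arntl the 10 highest were Nfil3 (0.86), St5 (0.83), Nol4l (0.80), Aagab (0.79), Cdcp1 (0.76), Ext1 (0.72), Fgf13 (0.71), Josd2 (0.71), Plagl2 (0.71) and Gm29367 (0.70). The 5 lowest were Dbp (-0.92), Rundc3b (-0.89), Anxa7 (-0.89), Per3 (-0.88) and Strap (-0.85). Nfil3, which represses through D-boxes, was 5.02 CPM in male Slfn3KO 1 and 24.9 CPM in female WT 3, again the extremes. The 10 nearest genes depended on the libraries. Without the WT libraries 3 and 4, 5 of the 10 of Dbp and 1 of the 10 of Arntl were again among the 10 nearest.

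Further clock genes were described by fixed lists, each counted at an unadjusted p under 0.05 in edgeR's test, since edgeR called no gene of any list in any of the 4 comparisons. Over all genes tested, 11.9% reached that p in the pooled comparison, 3.84% in males, 17.1% in females and 11.1% for the difference between the sexes, and counts in the lists are to be read against these shares. All genes had a median pooled log2 fold change of -0.0037. The 9 genes of the negative arm and its kinases had a median of 0.011 and 0 of 9 reached that p in the pooled and male comparisons. In females 2 of 9 reached it, beside 17.1% of all genes. Of these, Arntl2, a relative of Arntl, had a log2 fold change of 0.89 (unadjusted p = 0.0301; 1.47, unadjusted p = 0.00815 without WT 3 and 4) and Cry2, a relative of Cry1, a value of -0.93 (unadjusted p = 0.0156; -1.28, unadjusted p = 0.000930 without WT 3 and 4). Among females, Cry2 was highest (39.8 and 35.9 CPM) and Arntl2 lowest (0.499 and 0.338 CPM) in WT 1 and 2. These were the females with the highest proximal marker sums (23637 and 15929.7 CPM), and the part of the proximal markers was not tested. Ciart, a repressor of the loop, was highest in male Slfn3KO 1 at 3.77 CPM and lowest in female WT 1 at 0.200 CPM, where depth limits it. Of the 4 genes of the RORE arm 3 were tested, with a median of -0.20, and 0 of 3 reached that p in the pooled and male comparisons.

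Of the 4 PAR bZIP and bHLH factors, with a median of 0.069, Bhlhe41, a repressor of the loop, was the 1 at that p in the pooled comparison, at -1.40 (unadjusted p = 0.0327; 0.53, unadjusted p = 0.265 without WT 3 and 4). Its direction rested on WT libraries whose sex transcripts went against the label, since its highest values were 3.20 CPM in male WT 3 and 3.14 and 2.18 CPM in female WT 4 and 3. The same 3 libraries had the highest B cell follicle sums, in the same order (661, 413 and 318 CPM), and the part of those cells was not tested. Bhlhe41 fell to 0.122 CPM in male Slfn3KO 2, where depth limits it. Hlf, a relative of Dbp, was 8.76 CPM in male Slfn3KO 1, its highest value, and had a log2 fold change of 1.71 (unadjusted p = 0.0382; 2.25, unadjusted p = 0.0629 without WT 3 and 4) in males. Its value in males was 0.92 without male Slfn3KO 1, and 1.28 in the replicate block, where its unadjusted p of 0.131 by edgeR no longer met the rule that named it. The same holds in the pooled comparison for Bhlhe41, at -0.96 (unadjusted p = 0.136), and for Dusp1, below, at -0.38 (unadjusted p = 0.0759). In females, where the numbers gave no sign of pairing, the block took the unadjusted p by edgeR to 0.0561 for Arntl2, 0.0708 for Cry2, 0.0539 for Dusp1, 0.0898 for Hspa8 and 0.171 for Slc2a2 (at -3.75), so that these no longer met the rule either. The clock output list had 9 of 10 genes tested and a median of -0.079, with 0 of 9 at that p in the pooled comparison, Nampt at -0.45 (unadjusted p = 0.0124; -0.30, unadjusted p = 0.0813 without WT 3 and 4) in males, and Tsc22d3 at -0.95 (unadjusted p = 0.0114; -1.34, unadjusted p = 0.00153 without WT 3 and 4) in females. Nampt makes the precursor of NAD, and Tsc22d3 responds to glucocorticoids. Among females, Tsc22d3 was also highest in WT 1 and 2, at 118 and 78.0 CPM, and the part of the proximal markers was not tested.

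Of 9 glucocorticoid responsive genes tested of 10, with a median of -0.19, Dusp1 was the 1 at that p in the pooled comparison at -0.40 (unadjusted p = 0.0286; -0.45, unadjusted p = 0.0282 without WT 3 and 4), and it was also lower in females at -0.72 (unadjusted p = 0.0141; -0.80, unadjusted p = 0.0171 without WT 3 and 4). Mt2, which encodes a metallothionein, was 425 CPM in male Slfn3KO 1 and 2.99 CPM in female WT 3, with 1.72 (unadjusted p = 0.0282; 1.38, unadjusted p = 0.198 without WT 3 and 4) in males and 0.60 without male Slfn3KO 1. The 8 temperature responsive genes had a median of -0.065, and 0 of 8 reached that p in the pooled comparison. The heat shock genes Hsph1 in males at -0.86 (unadjusted p = 0.00160; -0.62, unadjusted p = 0.00515 without WT 3 and 4) and Hspa8 in females at 0.30 (unadjusted p = 0.0350; 0.26, unadjusted p = 0.154 without WT 3 and 4) did. For the difference between the sexes 3 of 8 were higher at that p, beside 11.1% of all genes, at 1.27 (unadjusted p = 0.00158; 1.14, unadjusted p = 0.0173 without WT 3 and 4) for Hsph1, 0.73 (unadjusted p = 0.0115; 0.98, unadjusted p = 0.000995 without WT 3 and 4) for Hsp90aa1 and 0.47 (unadjusted p = 0.0194; 0.26, unadjusted p = 0.250 without WT 3 and 4) for Hspa8. Counts at that p for this difference were 2 of 9 in the negative arm, 0 of 3 in the RORE arm, 1 of 4 among PAR bZIP and bHLH factors, 1 of 9 in clock output, 2 of 9 in glucocorticoid response and 1 of 7 in transport, and values are given for the temperature list alone, which had the most, a choice made after they were seen. Tsc22d3 is on both the clock output and the glucocorticoid list and was counted in both. DESeq2 called Hsph1 in males (adjusted p = 0.0478, in a range over all alternatives of 0.0478 to 1). Without the WT libraries 3 and 4 edgeR called Hsp90aa1 for the difference between the sexes (adjusted p = 0.0474, in a range of 0.0474 to 0.705).

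The 7 rhythmic transporters of the gut had a median of -0.29 in the pooled comparison, 0.14 in males, -0.64 in females and -0.97 for the sex interaction, and 0 of 7 reached that p in the pooled and male comparisons. Slc2a2, the glucose transporter of the basolateral membrane, was 149.5, 62.5, 1.09 and 2.44 CPM in female WT 1 to 4 and 0.503, 0.557, 4.32 and 1.06 CPM in female Slfn3KO 1 to 4. It was high in female WT 1 and 2, the females with the highest proximal marker sums (23637 and 15929.7 CPM), while WT 3 and 4 overlapped Slfn3KO, and the part of the proximal markers in this was not tested. Its log2 fold change was -5.05 (unadjusted p = 0.0102; -6.03, unadjusted p = 0.000150 without WT 3 and 4) in females and -3.76 without female WT 1, and it ranged from 0.503 CPM in female Slfn3KO 1 to 194 CPM in male Slfn3KO 4. DESeq2 called it in females (adjusted p = 0.0150, in a range over all alternatives of 0.0150 to 0.554). Abcb1a, an efflux pump of drugs, followed Dbp in its extremes, with 1261 CPM in male Slfn3KO 1 and 136 CPM in female WT 1.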

How the data were processed

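RNA was measured in 16 libraries, 4 in each group of labelled sex and genotype. The authors sequenced stranded libraries, trimmed the reads with cutadapt, aligned them to mm10 with STAR and deposited raw counts per gene, with the exon length of each gene. The file header names featureCounts 1.4.6 in reverse-stranded mode, whereas the methods of the study name HTSeq. The submitters' processing notes also list DESeq2 1.22.2. Gene symbols were matched to 45143 of 46078 identifiers. The members and lists were chosen with earlier results of these data known.

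From the counts, edgeR 4.0.16 (R 4.3.3) gave TMM factors and the robust quasi-likelihood F test of Slfn3KO against WT, with standard errors taken as the absolute log2 fold change over the square root of F. The filter was edgeR's filterByExpr with the 4 labelled groups. The pooled comparison had first been run with filterByExpr set by the sex and genotype design (14377 genes, in place of 14822), and this filter was replaced, and kept as an alternative, after the results of both had been seen. The pooled fit had labelled sex as covariate, each sex was also fitted alone, and the interaction gave the female difference minus the male difference. A gene was called at a Benjamini-Hochberg adjusted p under 0.05 over all genes tested and at least 1.5-fold. CPM used TMM factors, log2 CPM a prior count of 2, and TPM came from counts and exon length. Alternatives were RLE factors, DESeq2 1.42.0, other filters and thresholds, another covariate, a replicate block, a prior count of 0.5 and libraries left out. The tests were checked on simulated counts. Same-numbered mice are different animals. In males the deviations of same-numbered WT and Slfn3KO mice from their group means correlated across genes by 0.138 to 0.518 in all 4 pairs, so the numbers were taken to pair the males, from the data alone, although 2 of 4 Slfn3KO males were nearest to their own number. Genes are not independent replicates. The named genes were the 10 members, Slfn3, 5 sex transcripts, genes of 7 fixed lists at an unadjusted p under 0.05, and the 10 highest and 5 lowest in r with Arntl and with Dbp. Within a sex, fold changes were planned for Arntl, Dbp and Nr1d1, and Npas2 and Cry1 were added after their values were seen. Nr1d1 was planned because the study, which used these same libraries, lists it, so its choice was not independent of these data. Ciart, Tef, Nfil3 and Abcb1a were picked from the lists for their extremes after the values were seen. Some genes that these rules would name are not reported here.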

Additional observations from a re-analysis of the deposited data

How the results depend on the processing

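The count of genes past the adjusted threshold was 0 in all 4 edgeR comparisons and was again 0 with RLE factors, with no filter, with at least 10 counts in every library, without a fold threshold, and with each library left out in turn (0 to 0). It was also 0 in the pooled comparison with the filter by the sex and genotype design (run first, and replaced by the filter by 4 groups after both results had been seen) and without labelled sex as a covariate, and within each sex with all 4 groups in one fit. DESeq2's Wald test called 54 genes pooled, 14 in males, 506 in females and 19 for the difference between the sexes. An unadjusted p under 0.05 with 1.5-fold gave 984, 272, 1366 and 946. Without the WT libraries 3 and 4 the count for the difference between the sexes was 359, none of them a clock gene, and it was 0 in the other 3 comparisons. The cause was not tested. Of the 10 clock genes, DESeq2 called 1 in females, and the unadjusted p with 1.5-fold gave 1 in males, 2 in females and 2 for the difference between the sexes, and the count was 0 under every other alternative run. With the replicate block the counts of genes and of clock genes called were 0 in each comparison, so the block changed no call. In females same-numbered mice did not deviate together (correlations across genes of -0.364 to 0.143, with 0 of 4 Slfn3KO mice nearest to their own number). In the block the log2 fold change of Dbp in females was 0.23, the opposite sign to -0.30.

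Over 710 alternatives of 37 fold changes of single genes, 16 turned sign and 4 passed the threshold, which were Npas2 and Slc2a2 in females and Hsph1 in males by DESeq2, and Hsp90aa1 for the difference between the sexes without the WT libraries 3 and 4. Without the WT libraries 3 and 4 the pooled log2 fold change was -0.047 for Clock, 0.19 for Per2 and 0.53 for Bhlhe41. Leaving out 1 library at a time, the pooled value ran over -0.017 to 0.056 for Clock, -0.19 to 0.043 for Per1 and -0.15 to 0.32 for Per3. It ran over -0.37 to 0.22 for Arntl in males and -0.62 to 0.48 for Dbp in females. The correlation of Arntl and Dbp was below 0 at a permutation p under 0.05 in all alternatives of Pearson's r and ran from -0.94 to -0.87 with 1 library left out. Of the 10 genes nearest to Arntl, 4 were shared with Spearman's rho, 1 after centring on group means, 1 without the WT libraries 3 and 4 and 9 with a prior count of 0.5. For Dbp these were 8, 5, 5 and 10. The lowest count among the 10 clock genes was 68, for Dbp in female WT 1, and depth limits Slfn3, with 0 to 19 counts. Depth also limits several genes of the lists. Bhlhe41 fell to 0.122 CPM in male Slfn3KO 2, Hlf to 0.162 CPM in female Slfn3KO 4 and Ciart to 0.200 CPM in female WT 1. Arntl2 fell to 0.338 CPM in female WT 2, where 3 counts came to between 0.0974 and 0.144 CPM over the libraries before TMM scaling.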
